A study of Mus musculus with 6 samples.

Results

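Trem2, its signalling adaptor Tyrobp and 8 genes that mark disease-associated microglia (Apoe, Lpl, Cst7, Spp1, Gpnmb, Itgax, Cd9 and Lgals3) were examined in cultured mouse microglia after contact with neutrophils that had or lacked Cd177. Of the 10 genes, 9 had higher levels with Cd177 knockout (KO) neutrophils and Spp1 had a lower level. Trem2 differed most, at 2.32-fold. These 10 genes, of 55335 gene identifiers in the table, were chosen by name, with their levels in KO and wild-type (WT) neutrophil co-cultures of these same libraries already known. Their differences between the groups are therefore a description, and no test of them is given.

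RNA was sequenced from primary microglia of neonatal C57BL/6 mouse brain. The microglia were of WT genotype in both groups, and the neutrophils they met for 24 h came from the lesion of injured spinal cords of adult male mice, taken by magnetic sorting 3 days post injury. The neutrophil donors were WT in 3 libraries (the WT group) and Cd177 KO in the other 3 (the KO group). Microglia were afterwards collected by flow sorting, with a gate not given in the sources used here, and no culture without neutrophils was among the 6 libraries, so the groups can only be compared with each other. It is not given in the sources used here whether the libraries of a group came from separate cultures, so p-values measure the spread between these libraries, which may be technical.

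TREM2 is a receptor on the surface of microglia and other macrophages that binds lipids, lipoproteins and cell debris. It has no signalling motif of its own and passes its signal through TYROBP (DAP12), which recruits the kinase SYK. In mouse models of neurodegeneration, microglia around plaques or damaged myelin lose homeostatic genes such as P2ry12 and Tmem119 and switch on lipid, lysosome and phagocytosis genes. The later part of that switch is known to need Trem2, and its genes are called disease-associated microglia (DAM) genes.

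The cells were first checked against defining markers. Of 12 microglia and macrophage markers, 9 had a mean of at least 1 FPKM (fragments per kilobase of transcript, scaled to the mapped fragments of the library), and the 12 together summed to 660.2 to 700.4 FPKM in the WT group against 740.3 to 769.7 FPKM in the KO group. Cd68 made up most of that sum, with means of 371.7 and 491.3 FPKM, and the markers did not share a direction. Of the 9 tested 4 rose, 3 fell and 2 did not pass. Adgre1, which encodes the macrophage marker F4/80, fell from 101.3 to 39.3 FPKM (limma adjusted p = 1.74e-06 for a log2 change of -1.34), and Fcgr1 and Cx3cr1 fell by 0.29 and 0.81 on the log2 scale. The microglia markers P2ry12 and Tmem119 were under 1 FPKM in every library, with P2ry12 at 0.0232 to 0.148 FPKM. Aif1, a marker that other macrophages share, was also low, at 0.111 to 0.282 FPKM. The label of microglia thus rests on markers shared with other macrophages, and not all of the shared markers were present. All 13 neutrophil markers were under 1 FPKM in every library and 6 of them, including Ly6g and S100a9, were listed at 0 in all. Their sum was 2.03 to 2.30 FPKM in the WT group against 0.791 to 1.27 FPKM in the KO group, and its part in the results was not tested. None of the 7 astrocyte, 8 oligodendrocyte and 7 fibroblast or vascular markers reached 1 FPKM, and of the last 7 the endothelial gene Pecam1 alone was above 0.1 FPKM in any library, with means of 0.233 FPKM in the WT group and 0.0475 FPKM in the KO group, its part not tested. Mitochondrial genes held 11.1% to 11.3% of the FPKM sum in the WT and 14.3% to 14.6% in the KO group, and their part was not tested either.

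The test took genes averaging 1 FPKM or more, and all 10 members passed this filter. Over all 11395 genes that passed, 43.3% had a limma adjusted p under 0.05. Genes higher in the KO group made up 24.5% and genes lower made up 18.8%. After each library was rescaled to a common sum, 2175 genes were higher and 2660 lower, against 2789 and 2141 on the deposited scale. The groups did not overlap for 55.8% of the genes. The 10 genes did not overlap between groups either, from which nothing can be read because they were picked knowing this contrast. The median log2 change of the 10 genes was 0.60, against 0.02 over all genes tested. A log2 change here is on the log2(FPKM + 1) scale, which understates the change of low genes.

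**Figure D1:**
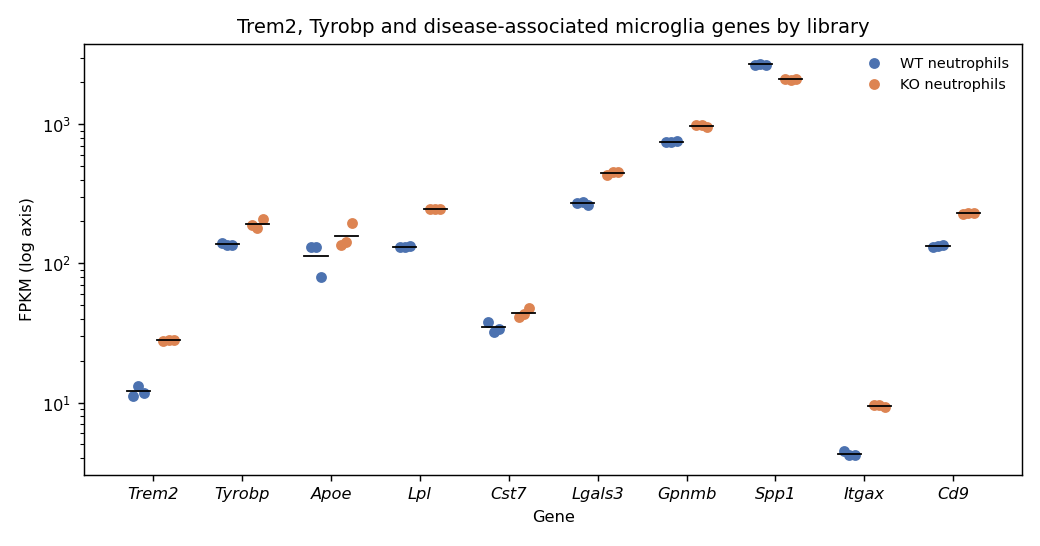
FPKM on a log axis for the 10 genes in the 3 libraries of each group, where each point is a library and each line a group mean. The KO points lie above the WT points for 9 genes and below them for Spp1, and Apoe has the widest spread within a group, with 79.2 to 131.0 FPKM in the WT group.

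The receptor and its adaptor came first. Trem2 (chromosome 17, 48346401 to 48354147, GRCm38) had 11.2, 13.2 and 11.8 FPKM in the WT group and 27.5, 28.1 and 28.2 FPKM in the KO group. All KO libraries were above all WT libraries, and the WT libraries were the more spread, with a coefficient of variation of 8.70% against 1.30%. The group means were 12.0 ± 1.05 and 28.0 ± 0.364 FPKM (SD, n = 3 libraries in each group), giving a log2 change of 1.15 (SE 0.059). Tyrobp (chromosome 7, 30413760 to 30417585) had 138.9, 135.1 and 136.0 FPKM in the WT group and 187.5, 178.5 and 207.3 FPKM in the KO group. Its groups did not overlap, and KO replicate 3 was the highest library. Tyrobp changed by 0.48 on the log2 scale (SE 0.0535). FPKM is a level per length, but the transcript lengths used are not given in the sources used here, so a ratio between genes depends on them, while its change between groups does not. On the deposited scale Trem2 stood at 8.04%, 9.77% and 8.65% of the level of Tyrobp in the WT group and at 14.7%, 15.7% and 13.6% in the KO group.

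Promoter sequences (RefSeq, GRCm38.p6, from 250 bases before to 50 bases after a transcript start) were found for 8 of the 10 genes in 11 windows, since Apoe had 3 starts and Spp1 had 2. Tyrobp and Lpl had no entry. Short motifs were sought on both strands in the 250 bases before the start, namely CACGTG, the E-box bound by MITF, TFE and USF factors, GAGGAA, the core of PU.1 sites, and TGANTCA, the AP-1 site. No member window held CACGTG, which 6.02% of all 32851 promoters held. GAGGAA was in 4 windows of 3 genes (Trem2, Apoe and Spp1) and in 23.3% of all promoters, and TGANTCA was in 2 windows of 2 genes (Trem2 and Itgax) and in 6.75% of all promoters. Over the whole windows, which run on to 50 bases after the start, TGANTCA was also in those of Cst7 and Gpnmb, and in 7.81% of all promoters, while GAGGAA and CACGTG were in no further member window (28.3% and 7.15% of all promoters). The promoters of Trem2 and Itgax, whose fold differences were the largest of the 10, and the Spp1 promoter with a match, of the only gene with a lower level, are shown 5′ to 3′ with the matches in capitals. The Trem2 window (chr17:48346151-48346400, plus strand) holds TGANTCA from 9 and GAGGAA, on the opposite strand, from 40 bases before the start. Itgax (chr7:128129300-128129549, plus strand) holds TGANTCA from 56 bases before the start, and Spp1 (chr5:104434861-104435110, plus strand) holds GAGGAA from 113 bases before it. None of these matches overlapped another, a match describes letters only, and no match says only that these letters are not in this window.
Trem2: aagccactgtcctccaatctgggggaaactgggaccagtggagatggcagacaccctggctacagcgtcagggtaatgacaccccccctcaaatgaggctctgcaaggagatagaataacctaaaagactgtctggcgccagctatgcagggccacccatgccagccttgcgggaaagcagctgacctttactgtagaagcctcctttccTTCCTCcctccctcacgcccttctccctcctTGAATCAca
Itgax: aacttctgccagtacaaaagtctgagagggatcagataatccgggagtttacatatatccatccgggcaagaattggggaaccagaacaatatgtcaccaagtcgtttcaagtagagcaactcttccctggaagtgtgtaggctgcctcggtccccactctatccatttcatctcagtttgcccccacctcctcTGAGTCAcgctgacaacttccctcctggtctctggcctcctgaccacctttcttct
Spp1: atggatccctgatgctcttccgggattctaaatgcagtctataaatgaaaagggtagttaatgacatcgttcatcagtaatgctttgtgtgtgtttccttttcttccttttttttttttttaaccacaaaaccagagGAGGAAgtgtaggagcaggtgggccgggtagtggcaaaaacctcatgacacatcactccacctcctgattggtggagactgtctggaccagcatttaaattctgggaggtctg

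Next, the lipoprotein genes were examined. Apoe (chromosome 7, 19696109 to 19699188) encodes the main apolipoprotein of brain lipid particles, a ligand of TREM2. Apoe had 131.0, 130.9 and 79.2 FPKM in the WT group and 136.5, 141.8 and 193.4 FPKM in the KO group. WT replicate 3 was low and KO replicate 3 was high, and the other 4 libraries lay within 130.9 to 141.8 FPKM. The log2 change was 0.48 with an SE of 0.229, the largest SE of the 10 genes. It was 0.24 without WT replicate 3 and 0.33 without KO replicate 3. Lpl (chromosome 8, 68880491 to 68907448), the lipase that releases fatty acids from lipoprotein triglycerides, was much steadier. Lpl had 130.1, 130.3 and 132.3 FPKM in the WT group and 247.5, 246.8 and 245.8 FPKM in the KO group. The groups did not overlap, the coefficient of variation was 0.908% and 0.347%, and the log2 change was 0.91 (SE 0.0167), 1.89-fold.

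The lysosomal and glycan-binding genes were also at higher levels in the KO group. Cst7 (chromosome 2, 150570415 to 150578944) encodes cystatin F, an inhibitor of lysosomal cysteine proteases. Cst7 had 37.9, 32.1 and 34.0 FPKM in the WT group and 41.3, 43.3 and 47.5 FPKM in the KO group. The groups did not overlap, but the highest WT and the lowest KO library lay close together, and the log2 change was 0.34 (SE 0.0742). Gpnmb (chromosome 6, 49036546 to 49070929), a transmembrane glycoprotein of stressed lysosomes, had 744.2, 746.9 and 750.8 FPKM in the WT group. With KO neutrophils Gpnmb had 988.9, 984.0 and 958.4 FPKM, a log2 change of 0.39 (SE 0.0173) with no overlap. Lgals3 (chromosome 14, 47367751 to 47386160) encodes galectin-3, a lectin recruited to damaged lysosomes. Lgals3 had 270.1, 275.6 and 263.0 FPKM in the WT group and 431.6, 450.1 and 451.4 FPKM in the KO group, without overlap and with a log2 change of 0.72 (SE 0.0267).

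Spp1 (chromosome 5, 104435118 to 104441050), which encodes the secreted integrin and CD44 ligand osteopontin, went the other way. Spp1 had 2657, 2726 and 2680 FPKM in the WT group and 2110, 2062 and 2126 FPKM in the KO group. All 3 WT libraries were above the KO libraries, and the log2 change was -0.36 (SE 0.0183), 1.28-fold lower. An exon of Spp1 overlaps that of Gm42793 on the same strand, so reads could be split between them. Gm42793 itself reached 7.78 FPKM, in a WT library, far below Spp1.

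The surface proteins Itgax and Cd9 completed the set. Itgax (chromosome 7, 128129547 to 128150657) encodes CD11c, the alpha chain that joins Itgb2 in an integrin of dendritic cells and activated microglia. Itgax had 4.51, 4.18 and 4.19 FPKM in the WT group and 9.59, 9.53 and 9.29 FPKM in the KO group. It was the lowest of the 10 transcripts, its groups did not overlap, and the log2 change was 0.98 (SE 0.0439), 2.21-fold. Cd9 (chromosome 6, 125460266 to 125494791), a tetraspanin that organises membrane partners, had 130.9, 132.7 and 135.1 FPKM in the WT group and 226.2, 230.8 and 230.0 FPKM in the KO group. The Cd9 groups did not overlap either, with a log2 change of 0.78 (SE 0.020). An exon of Gm26728 lies on the strand opposite to Cd9, and that gene was at 0 to 0.0947 FPKM.

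**Figure D2:**
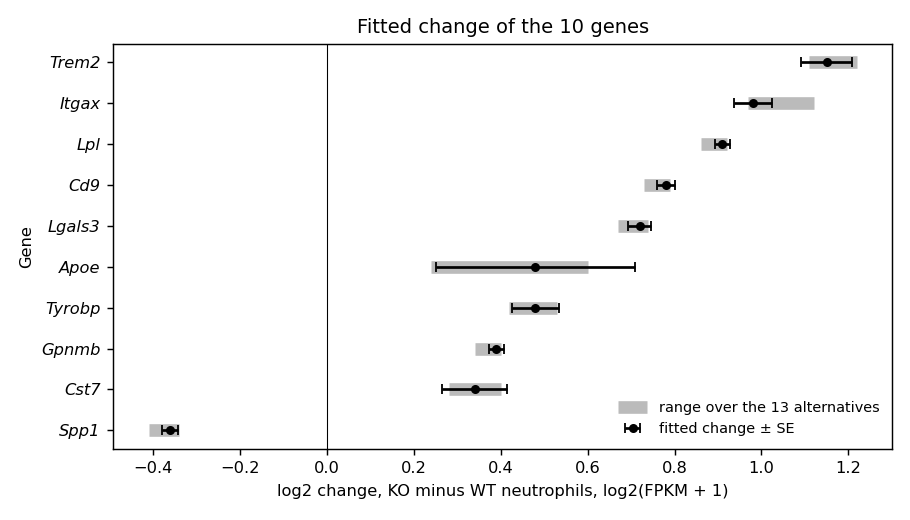
Fitted log2 change (KO minus WT neutrophils, log2(FPKM + 1) scale) of the 10 genes, with SE bars and, in grey, the range over 13 alternative settings. Trem2 is at the top with 1.15, Spp1 is the only gene below 0 with -0.36, and the grey bar of Apoe is the widest, from 0.24 to 0.60.

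The order of the levels, which also depends on the lengths used, was alike in both groups. Spp1 was highest, followed by Gpnmb and Lgals3, and Cst7, Trem2 and Itgax were the lowest in that order. With WT neutrophils the 4 genes in between, Tyrobp, Cd9, Lpl and Apoe, had means of 136.7, 132.9, 130.9 and 113.7 FPKM, and each overlapped its neighbour in the order. With KO neutrophils Lpl (246.7 FPKM) and Cd9 (229.0 FPKM) stood above Tyrobp (191.1 FPKM), and of neighbours in the whole order only Tyrobp and Apoe overlapped. Spp1 ranked 14 among the genes tested in the WT and 16 in the KO group, and Trem2 ranked 4118 and 1741. Together the 10 genes held 1.35%, 1.37% and 1.35% of all FPKM in the WT group and 1.35%, 1.35% and 1.38% in the KO group. The make-up of that sum differed, because Spp1 was 62.4% to 63.4% of it in the WT and 47.1% to 47.9% in the KO group. Without Spp1 the sum was 1546 to 1601 FPKM and 2297 to 2371 FPKM. In bulk RNA, a lower level of a gene in all cells and fewer cells expressing it cannot be told apart.

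The profiles most like that of Trem2 were then listed, by the root mean square distance between mean-centred log2(FPKM + 1) values over the 6 libraries. They were Lsp1 (0.048), S1pr1 (0.055), Camk1 (0.068), Card14 (0.068) and Clec7a (0.070), none of them a member. The nearest members were Itgax and Lpl, at places 34 and 48, while Tyrobp stood at 606 and Spp1 at 10113. Clec7a, which encodes the beta-glucan receptor dectin-1 and is itself known from DAM, had 8.98 to 9.12 FPKM in the WT group against 20.3 to 21.7 FPKM in the KO group. For Tyrobp the nearest were Uqcr10 (0.032), Akr1b10 (0.032), Avpi1 (0.037), 9930111J21Rik1 (0.040) and Rpa3 (0.040), none of them a member. This distance follows the group difference and describes 6 libraries only.

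Of the genes in the lists described below, those near Trem2, Tyrobp or Apoe were named by position. Neighbours outside the lists, and those of the other members, were not searched. The list genes around Trem2 on chromosome 17 encode other receptors of the family. Trem3 and Treml2, whose starts lie 98.6 and 46.9 kb from that of Trem2, fell while Trem2 was higher. Trem3 had 3.81, 5.86 and 6.33 FPKM in the WT group and 2.22, 2.34 and 3.46 FPKM in the KO group (limma adjusted p = 0.0199 for a log2 change of -0.78). Treml2 differed little, with 21.8 to 23.2 FPKM against 20.2 to 20.6 FPKM (limma adjusted p = 0.0289 for a log2 change of -0.12). Trem1, Treml1 and Treml4 had means under 1 FPKM and were not tested, with group means of 0.897 and 0.463, 0.445 and 0.871, and 0.327 and 0.219 FPKM for WT and KO. At the Tyrobp locus, Hcst, which encodes the related adaptor DAP10 and starts 6.1 kb away, had 4.14 ± 0.461 and 4.48 ± 0.672 FPKM (± SD of 3 libraries; limma adjusted p = 0.540). In the apolipoprotein cluster, the start of Apoc2 lies 21.2 kb from that of Apoe. Apoc2 rose from 1.59 ± 0.246 to 2.91 ± 0.369 FPKM (± SD of 3 libraries, limma adjusted p = 0.00453 for a log2 change of 0.59). Apoc1 had a mean under 1 FPKM and was not tested. It was listed at 0 in the WT libraries and at 0.140 to 0.158 FPKM in the KO libraries.

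**Figure D3:**
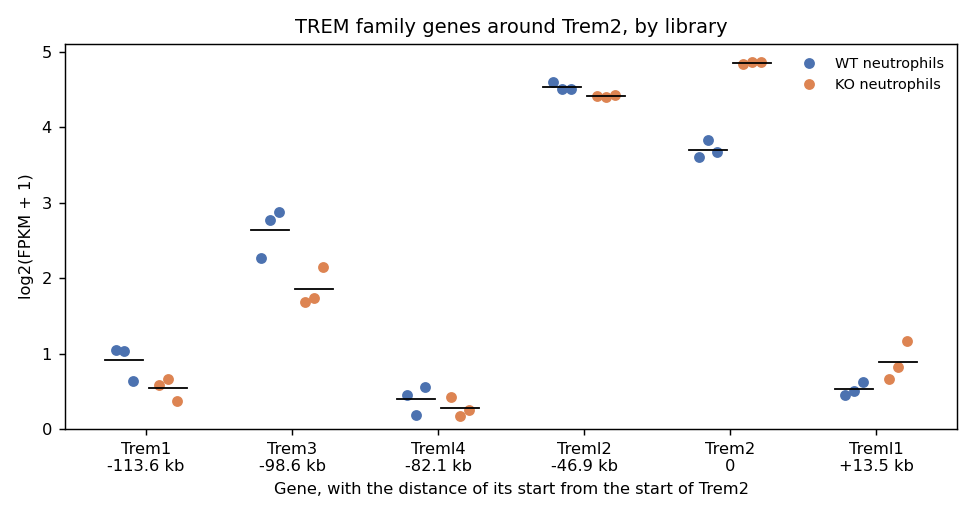
Level of the TREM family genes as log2(FPKM + 1) in each of the 6 libraries, in genome order with the distance of each start from that of Trem2. Trem2 has its KO points above its WT points, Trem3 and Treml2 have theirs below, and Trem1, Treml1 and Treml4 have means under 1 FPKM.

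The wider set of TREM family receptors and receptors that signal through Tyrobp held 11 genes, of which 5 were tested. All 5 passed the test, 1 higher and 4 lower (median log2 change -0.21). Cd300lb, an activating receptor that uses DAP12, rose from 5.06, 5.78 and 6.16 FPKM to 18.0, 18.0 and 18.2 FPKM (limma adjusted p = 1.02e-05 for a log2 change of 1.52). Pilrb1, a paired activating receptor, fell from 3.52, 3.68 and 3.06 FPKM to 0.395, 0.345 and 0.203 FPKM (limma adjusted p = 2.50e-05 for a log2 change of -1.75, or -3.11 with a pseudocount of 0.1). Clec5a, a lectin receptor coupled to DAP12, fell from 15.9 ± 1.19 to 13.6 ± 0.202 FPKM (± SD of 3 libraries; limma adjusted p = 0.0253). The calls of Trem3, Treml2 and Clec5a were not stable. The list had 3 calls without WT replicate 1, WT replicate 2 or KO replicate 3, and 2 without KO replicate 1 or KO replicate 2, while Cd300lb and Pilrb1 kept theirs in each of these fits.

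Of 15 adaptors, kinases, lipases and phosphatases downstream of Trem2 and Tyrobp, all were tested, 5 rose, 5 fell and 5 did not pass (median 0.04). Syk, the kinase that docks on phosphorylated DAP12, fell from 21.1, 21.3 and 21.6 FPKM to 13.5, 14.7 and 14.0 FPKM (limma adjusted p = 8.04e-05 for a log2 change of -0.57). Vav1, a signalling protein that SYK phosphorylates, fell from 67.1, 65.8 and 64.3 FPKM to 33.3, 36.5 and 34.1 FPKM (limma adjusted p = 1.07e-05 for a log2 change of -0.91). Plcg2, the phospholipase C that SYK activates, rose from 50.8, 53.1 and 51.1 FPKM to 64.3, 64.3 and 62.6 FPKM (limma adjusted p = 2.70e-04 for a log2 change of 0.30). Besides these, Lat2, Pik3r1, Btk and Inpp5d rose and Vav2, Pik3cb and Ptpn6 fell, named after their values were seen. Inpp5d and Ptpn6 encode the inhibitory phosphatases SHIP1 and SHP-1, and their log2 changes were 0.40 and -0.30. Of 9 genes for TREM2 shedding and the MS4A family, 2 were tested, both proteases that shed TREM2, Adam17 having means of 32.3 and 26.5 FPKM, and Adam10 having 21.8, 21.7 and 35.6 FPKM against 27.1, 41.7 and 27.4 FPKM (limma adjusted p = 0.386). Adam17 passed as lower (limma adjusted p = 0.0418 for a log2 change of -0.28), but not without WT replicate 1, WT replicate 2, KO replicate 2 or KO replicate 3, with 0 calls in the list in each case, nor without the filter on low levels (limma adjusted p = 0.101) or the variance trend (limma adjusted p = 0.0541). No gene of this list was higher by limma, also at an unadjusted p under 0.05 (0 genes). The 7 MS4A genes, which include regulators of TREM2 release, had means under 1 FPKM.

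The DAM genes outside the 10 did not share one direction. Of 29 such genes 26 were tested, 8 rose, 13 fell and 5 did not pass, with a median log2 change of -0.03 against 0.02 for all genes tested. The chemokine gene Ccl3 fell from 3088, 3104 and 2983 FPKM to 610.1, 617.1 and 612.2 FPKM (limma adjusted p = 1.30e-08 for a log2 change of -2.32). Ccl4, a related chemokine gene, fell from 382.7, 388.0 and 375.4 FPKM to 82.2, 86.3 and 82.0 FPKM (limma adjusted p = 6.05e-08 for a log2 change of -2.18). Lilrb4a, an inhibitory receptor, fell from 106 ± 0.663 to 41.6 ± 1.17 FPKM (± SD of 3 libraries; limma adjusted p = 5.17e-07 for a log2 change of -1.33). Fth1, the ferritin heavy chain, fell from 2576, 2556 and 1789 FPKM to 1301, 1318 and 1337 FPKM (limma adjusted p = 0.00503 for a log2 change of -0.79), and WT replicate 3 was low for it as for Apoe. Among the rises, Clec7a changed by 1.14 on the log2 scale (limma adjusted p = 3.71e-06). The other 7 rises were Igf1 (0.69), Ank (0.58), Timp2 (0.52), Ctsd (0.46), Cd68 (0.40), Cadm1 (0.32) and Ctsl (0.27), named with their log2 changes after these were seen. The lysosomal cathepsins of the list were divided. Ctsd and Ctsl rose, Ctsz fell (limma adjusted p = 6.48e-04 for a log2 change of -0.14), and Ctsb had 516.1 and 525.4 FPKM without passing. Ctsa fell by 0.15 on the log2 scale (limma adjusted p = 0.0191), but not without WT replicate 1, WT replicate 3, KO replicate 1 or KO replicate 3. These cathepsins were named after their values were seen. The other 7 falls, with their log2 changes, were Cd52 (-1.40), Npc2 (-0.53), B2m (-0.50), H2-D1 (-0.41), Csf1 (-0.36), Hif1a (-0.22) and Gusb (-0.08). They too were named after these were seen. Of the 3 genes not tested, also named afterwards, Axl was under 1 FPKM, and Serpine2 and Ch25h were listed at 0 in all libraries.

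**Figure D4:**
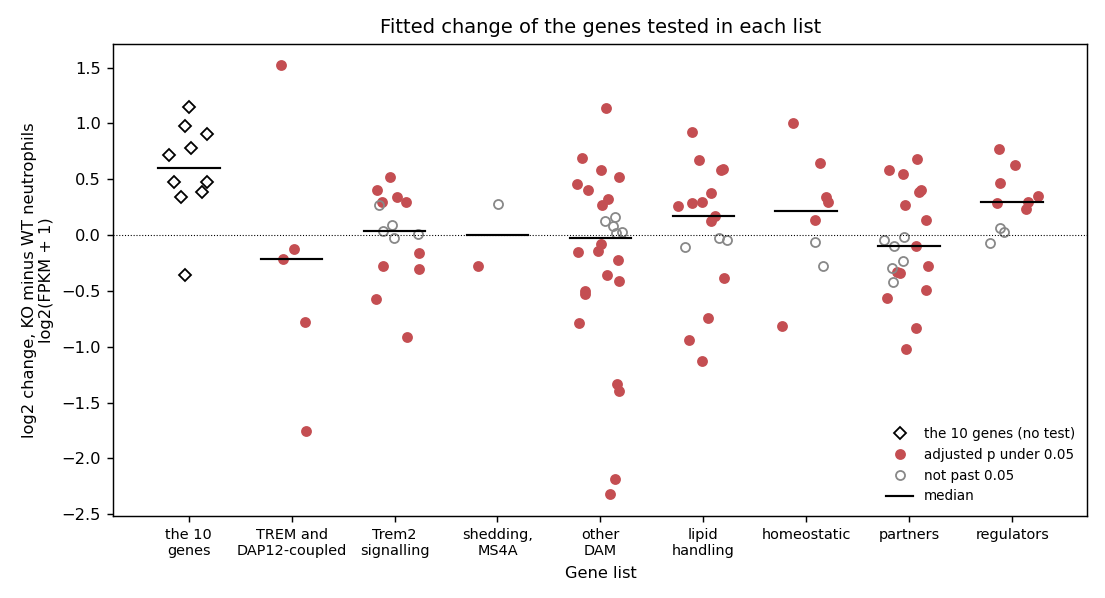
Fitted log2 change (KO minus WT neutrophils, log2(FPKM + 1) scale) of every tested gene in 8 gene lists, with filled points for a limma adjusted p under 0.05, open points for the rest and a line at each median. The 10 genes are shown at the left as diamonds without a test, with a median of 0.60, while the other DAM genes spread from -2.32 to 1.14 around -0.03.

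Lipid handling genes were next. Of 22 genes 17 were tested, 10 rose, 4 fell and 3 did not pass (median 0.17). Lipa, the lysosomal acid lipase, rose from 19.2, 19.7 and 19.3 FPKM to 37.5, 38.1 and 37.1 FPKM (limma adjusted p = 2.06e-06 for a log2 change of 0.92), close to the size of the Lpl difference. Plin2, which coats lipid droplets, rose from 68.3, 67.5 and 66.4 FPKM to 107.6, 107.6 and 107.8 FPKM (limma adjusted p = 2.70e-06 for a log2 change of 0.67). Lrp1, a receptor for ApoE particles, rose from 45.6 ± 0.357 to 54.7 ± 0.815 FPKM (± SD of 3 libraries; limma adjusted p = 2.44e-04 for a log2 change of 0.26). Abca1, which exports cholesterol to apolipoproteins, fell from 12.8, 12.9 and 12.9 FPKM to 6.24, 6.16 and 6.26 FPKM (limma adjusted p = 4.90e-06 for a log2 change of -0.94). Abcg1, the partner of Abca1 in cholesterol export, rose (limma adjusted p = 0.00442 for a log2 change of 0.38). The other falls were Clu (-1.13), Fabp4 (-0.74) and Npc1 (-0.38), of which Clu encodes clusterin, a further TREM2 ligand. Abcg1 and these 3 were named after their values were seen. On the scale rescaled to a common sum 8 rose and 4 fell.

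Homeostatic microglia genes were mostly too low to test, 12 of 20 having a mean under 1 FPKM, and Sall1, Fcrls, C1qa and Sparc were listed at 0 in all libraries. Of the 8 tested, 5 rose, 1 fell and 2 did not pass (median 0.22). Cst3, the cysteine protease inhibitor cystatin C, rose from 118.9, 119.3 and 134.0 FPKM to 191.3, 198.8 and 195.0 FPKM (limma adjusted p = 1.30e-04 for a log2 change of 0.65). Csf1r, the receptor that keeps microglia alive, rose from 15.5 ± 0.294 to 19.4 ± 0.820 FPKM (± SD of 3 libraries; limma adjusted p = 0.00139 for a log2 change of 0.30). The gene that fell was Cx3cr1, the fractalkine receptor, with 2.82, 2.98 and 2.41 FPKM against 1.04, 1.43 and 0.956 FPKM (limma adjusted p = 0.00148 for a log2 change of -0.81), named after its values were seen.

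Binding partners, targets and relatives of the 10 proteins were counted as well. Of 22 genes 21 were tested, 7 rose, 8 fell and 6 did not pass (median -0.10), and on the rescaled scale 6 rose and 10 fell. Lgals1, the galectin related to Lgals3, rose from 331.9, 327.4 and 334.4 FPKM to 522.5, 525.8 and 549.1 FPKM (limma adjusted p = 4.89e-06 for a log2 change of 0.68), beside 0.72 for Lgals3. The other galectins of the list went the other way, since Lgals9 and Lgals8 fell by 0.83 and 0.28 on the log2 scale (limma adjusted p = 1.82e-04 and 0.00214). Lgals3bp, which encodes a glycoprotein that galectin-3 binds, fell by 1.02 (limma adjusted p = 0.00658), and these 3 genes were named after their values were seen. Lgmn, the lysosomal protease legumain, rose from 288 ± 1.15 to 422 ± 3.31 FPKM (± SD of 3 libraries; limma adjusted p = 1.94e-06 for a log2 change of 0.55). Cstb, the cytosolic cystatin B, rose from 323 ± 4.27 to 426 ± 9.46 FPKM (± SD of 3 libraries; limma adjusted p = 3.31e-05 for a log2 change of 0.40), beside 0.34 for Cst7. Cd53, a tetraspanin like Cd9, fell from 251.5, 247.9 and 249.1 FPKM to 199.5, 194.6 and 196.1 FPKM (limma adjusted p = 2.51e-05 for a log2 change of -0.34). Itgb2, the beta chain that joins Itgax, fell from 53.8 ± 0.762 to 38.1 ± 1.09 FPKM (± SD of 3 libraries; limma adjusted p = 4.20e-05 for a log2 change of -0.49), opposite to Itgax. Itgam, the alpha chain of the related integrin CD11b, had 8.12, 23.9 and 26.7 FPKM in the WT group, where WT replicate 1 stood apart, and 15.4, 18.1 and 15.2 FPKM in the KO group. Its log2 change was -0.10 with all libraries (limma adjusted p = 0.857) and -0.61 without WT replicate 1 (limma adjusted p = 0.0054), so that library decided the call. Itgb2 and Itgam were named after their values were seen.

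Transcription factors linked to the DAM, lysosomal and lipid programmes were counted last. Of 13 genes 10 were tested, 7 rose, 0 fell and 3 did not pass by limma (median 0.30), and 0 fell at an unadjusted p under 0.05. Bhlhe41, a repressor that restrains DAM genes in microglia, rose from 6.91, 6.53 and 6.79 FPKM to 12.9, 12.0 and 11.8 FPKM (limma adjusted p = 4.65e-05 for a log2 change of 0.77). Its paralog Bhlhe40 rose from 13.9 ± 0.142 to 18.0 ± 0.456 FPKM (± SD of 3 libraries; limma adjusted p = 2.81e-04 for a log2 change of 0.35). Rxra, the partner of the LXR and PPAR receptors, rose from 16.4, 15.7 and 15.8 FPKM to 22.6, 22.4 and 22.3 FPKM (limma adjusted p = 5.79e-05 for a log2 change of 0.47). Spi1, which encodes PU.1, rose from 35.3 ± 1.08 to 43.5 ± 2.56 FPKM (± SD of 3 libraries; limma adjusted p = 0.00365 for a log2 change of 0.29), and Usf2, an E-box factor, from 18.1 ± 0.985 to 21.3 ± 0.599 FPKM (± SD of 3 libraries; limma adjusted p = 0.00894 for a log2 change of 0.23). The other rises were Tfeb (0.63, or 1.10 with a pseudocount of 0.1) and Mitf (0.30), both members of the MITF and TFE family of lysosomal regulators, named after their values were seen. Over the 8 lists 79 of 104 tested genes had a limma adjusted p under 0.05, 43 higher and 36 lower (76%). The lists were chosen with earlier results of these data known, so nothing is read from this share against the 43.3% of all genes tested.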

How the data were processed

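RNA-seq data from 6 libraries of microglia were used, 3 after co-culture with neutrophils of WT and 3 with those of Cd177 KO mice, grouped by their titles. The authors deposited 1 FPKM table with 1 column per library. The submitters' processing notes name fastp 0.17.1, HISAT2 2.1.0 and DESeq2, without their roles. The quantifier, genome build and annotation are not given in the sources used here. Of 55335 identifiers 55154 (99.67%) matched a symbol in GENCODE M21 (GRCm38), which also gave positions.

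The deposited FPKM values carry no depth. When low values were read as multiples of 1 fragment, 28.0% to 29.1% came out whole (within 0.05 of a fragment, 10% by chance), so counts were not recovered and no count test was run.

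Log2(FPKM + 1) values of genes averaging 1 FPKM or more were fitted in limma 3.58.1 (R 4.3.3) with lmFit and eBayes with trend, KO minus WT, no covariates. P-values were adjusted by Benjamini-Hochberg over all 11395 genes. The fit was tested on simulated data. An exact permutation test of 3 against 3 cannot go below 0.1 and was not used. FPKM levels can be shifted between libraries by a few abundant genes, so a common sum was tried.

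The 10 genes and the lists were chosen with earlier results of these data known. Of each list the 3 genes with the smallest p and the 2 with the highest level were named. Also named were the 5 genes nearest in profile to Trem2 and to Tyrobp, and list genes near Trem2, Tyrobp or Apoe. The rest are those said to be named after their values were seen. Some genes that this rule names are not reported here.

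Libraries were not treated as pairs. The alternatives were another pseudocount (0.1), testing every gene above 0 in some library, an average of 5 FPKM or more, a common sum, median centring, no variance trend, the replicate block and leaving out each library.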

Additional observations from a re-analysis of the deposited data

How the results depend on the processing

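None of the 10 genes changed sign under the 13 alternatives. With all 6 libraries Itgax moved furthest, from 0.98 to 1.12 on the log2 scale with a pseudocount of 0.1, and leaving out 1 library gave 1.11 to 1.22 for Trem2 and 0.24 to 0.60 for Apoe. The common sum gave 0.86 for Lpl, -0.41 for Spp1 and still 1.15 for Trem2. Of 79 called list genes, 68 kept their call in every alternative that tested them and 11 lost it in at least 1, with 0 changes of sign.

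All genes called numbered 4082 to 4223 when 1 library was left out, and 3763 at an average of 5 FPKM or more, where fewer genes were tested, against 4930. The receptor list gave 3 calls without the low-value filter, where all 11 of its genes were tested and Trem3 and Clec5a lost theirs, and 3 at an average of 5 FPKM or more, where only 3 of its genes were tested, and 2 to 4 when 1 library was left out. The shedding and MS4A list gave 2 calls without the low-value filter, where 8 of its genes were tested and Adam17 was not among the calls, 0 with no variance trend (the cause was not tested), and 0 to 1 when 1 library was left out. Calls lost when 1 library was left out rest on fewer samples.

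Replicate numbers did not pair the libraries, since same-numbered libraries correlated at -0.075, -0.052 and -0.005 in their deviations. The replicate block left 4212 genes called, and Treml2 (limma adjusted p = 0.0629), Ctsa, Sorl1, Scarb1, Cd81, Itgb3 and Ctsc lost their calls. Depth is unknown, so the precision of low values such as those of Trem1 and P2ry12 cannot be given.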
